A study of Mus musculus with 6 samples.

Results

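The 10 genes described here are transcription factors that act in cartilage and bone: *Sox9*, *Sox5*, *Sox6*, *Runx1*, *Runx2*, *Runx3*, *Sp7*, *Dlx5*, *Mef2c* and *Foxc1*. They were taken by symbol from the count matrices, where each matched 1 of 33696 genes, and all 10 were detected in every library. Single cells came from the Achilles tendon of *Gli1*-CreERT2; Ai9 mice treated with tamoxifen, in which cells that express *Gli1* at the time of induction, and their progeny, carry the tdTomato reporter. Both fractions of the sort, *Gli1*+ and *Gli1*-, came from mice of this genotype and were taken from uninjured tendon and at 7 and 21 days after tenotomy (dpi). With 8 mice per time point pooled and 1 library for each of the 6 conditions, cells cannot be assigned to mice, and the age of the mice is not given in the sources used here. No test between conditions was therefore made. Values are CPM, a gene's UMI counts scaled by the total of the summed cells as is usual for this unit, with 95% intervals that hold counting error only, and members were compared within a gene, not between genes.

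SOX9 is needed for cartilage to form, and SOX5 and SOX6 bind with it at the enhancers of cartilage matrix genes. RUNX2 drives both the hypertrophy of chondrocytes and the formation of osteoblasts, SP7 acts downstream of it in osteoblasts, and DLX5, MEF2C and FOXC1 take part in the same programs. RUNX1 and RUNX3 share the DNA-binding domain of RUNX2 and are also known for their roles in blood and T cells, and MEF2C for its role in muscle, vessels and bone. After tenotomy the tendon can ossify through a cartilage stage, called heterotopic ossification, which is why these factors are of interest here.

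RefSeq promoter sequences (GRCm38.p6, from 250 bases before to 50 bases after each start site) were at hand for 7 of the 10 members, in 16 windows. The RUNX motif AACCACA was searched in them on both strands. It was found in 3 of the 16 member windows, 1 each of *Runx1*, *Runx2* and *Runx3*, and in 5.27% of all 32851 windows. In each of these 3 windows it stood as a tandem, 2 motifs with 1 base between them, which was found in 5 windows of the whole set (0.0152%). The other windows belong to *Gm16225*, whose window overlaps that of *Runx3* on the other strand, and to *Olfr24*. The 3 members and *Gm16225* share the letters AACCACAGAACCACA. The tandems are shown with the motifs in capitals, because they set the 3 RUNX genes beside each other before their levels are compared:
*Runx1*, chr16:92826025-92826054, minus strand, first motif base 27 bases after the start site: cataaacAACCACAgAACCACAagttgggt
*Runx2*, chr17:44814583-44814612, minus strand, first motif base 22 bases after the start site: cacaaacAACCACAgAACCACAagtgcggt
*Runx3*, chr4:135120503-135120532, plus strand, first motif base 135 bases before the start site: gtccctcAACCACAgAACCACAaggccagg
The *Runx2* window held 1 more single motif, 81 bases before the start site. A match says only that these letters are present.

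After the cell filters and removal of likely doublets, the libraries held between 7057 and 10882 cells, with median depths from 4297 UMIs per cell in uninjured *Gli1*- to 9775 in *Gli1*- at 7 dpi. Pairs of libraries shared 27 to 75 cell barcodes, at most 0.534% of the smaller library. *Gli1* itself was at 2.17 to 7.64 CPM and was not higher in the *Gli1*+ library at any time except by 4.10 against 4.03 CPM at 21 dpi. The labels give equal numbers of both sexes. By *Xist* and 4 Y-linked genes, 68.7% of the uninjured *Gli1*+ cells were female and 15.0% male, against 0 and 59.6% in uninjured *Gli1*-. At 7 dpi 70.9% and 70.5% were male in *Gli1*+ and *Gli1*-, with 0.0108% and 0.0101% female. At 21 dpi 92.7% and 90.5% were female, with 0.112% and 0.0552% male. Most other cells held no UMI of these genes. Time and sex thus cannot be told apart in most comparisons, and within-sex values are given where a sex was present on both sides. *Cntn5* was at 654 CPM in uninjured *Gli1*-, 173 and 206 CPM in both libraries at 7 dpi and under 2 CPM in the others. The libraries with almost no female cells thus stood apart in this gene too. By sex and *Cntn5*, the uninjured *Gli1*+ and *Gli1*- libraries do not read as fractions of the same pool of mice. A difference between the sorts there cannot be told apart from one between mice. The part of *Cntn5* in the results was not tested.

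Levels were read in cells gated by UMIs of 1 gene. *Pdgfra* cells (at least 1 UMI) stand for mesenchymal cells, *Scx* cells (at least 1) for the tendon lineage, *Col2a1* cells (at least 5) for cartilage matrix, *Bglap*/*Ibsp* cells (at least 5 together) for bone matrix and *Cd3e* cells (at least 1) for T cells. The gates can share cells. In the order uninjured, 7 dpi and 21 dpi, there were 22, 31 and 262 *Col2a1* cells in *Gli1*+ and 1, 46 and 322 in *Gli1*-. There were 37, 13 and 168 *Bglap*/*Ibsp* cells in *Gli1*+ and 9, 16 and 210 in *Gli1*-. No level is given for a gate with under 20 cells.

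The gates were checked against other markers. All 11 cartilage markers were detected in the *Col2a1* cells of both sorts at 7 and 21 dpi, summing to between 14895 and 20689 CPM. In the 22 uninjured *Gli1*+ *Col2a1* cells only 7 of 11 were detected, *Acan*, *Col9a3*, *Matn1* and *Snorc* were at 0, and 15 of the cells were also *Bglap*/*Ibsp* cells, so the name cartilage goes against the data there. *Bglap*/*Ibsp* cells also differed with time. Their 7 bone markers summed to 12929 CPM in uninjured *Gli1*+ and to 1755 and 1461 CPM at 21 dpi in *Gli1*+ and *Gli1*-, while the 11 cartilage markers summed to 3964, 7216 and 11116 CPM. Of the 37 uninjured cells 24 held more *Bglap* than *Ibsp*, and of the 168 and 210 cells at 21 dpi 152 and 188 held more *Ibsp*. They are called *Bglap*/*Ibsp* cells below, not osteoblasts.

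**Figure D1:**
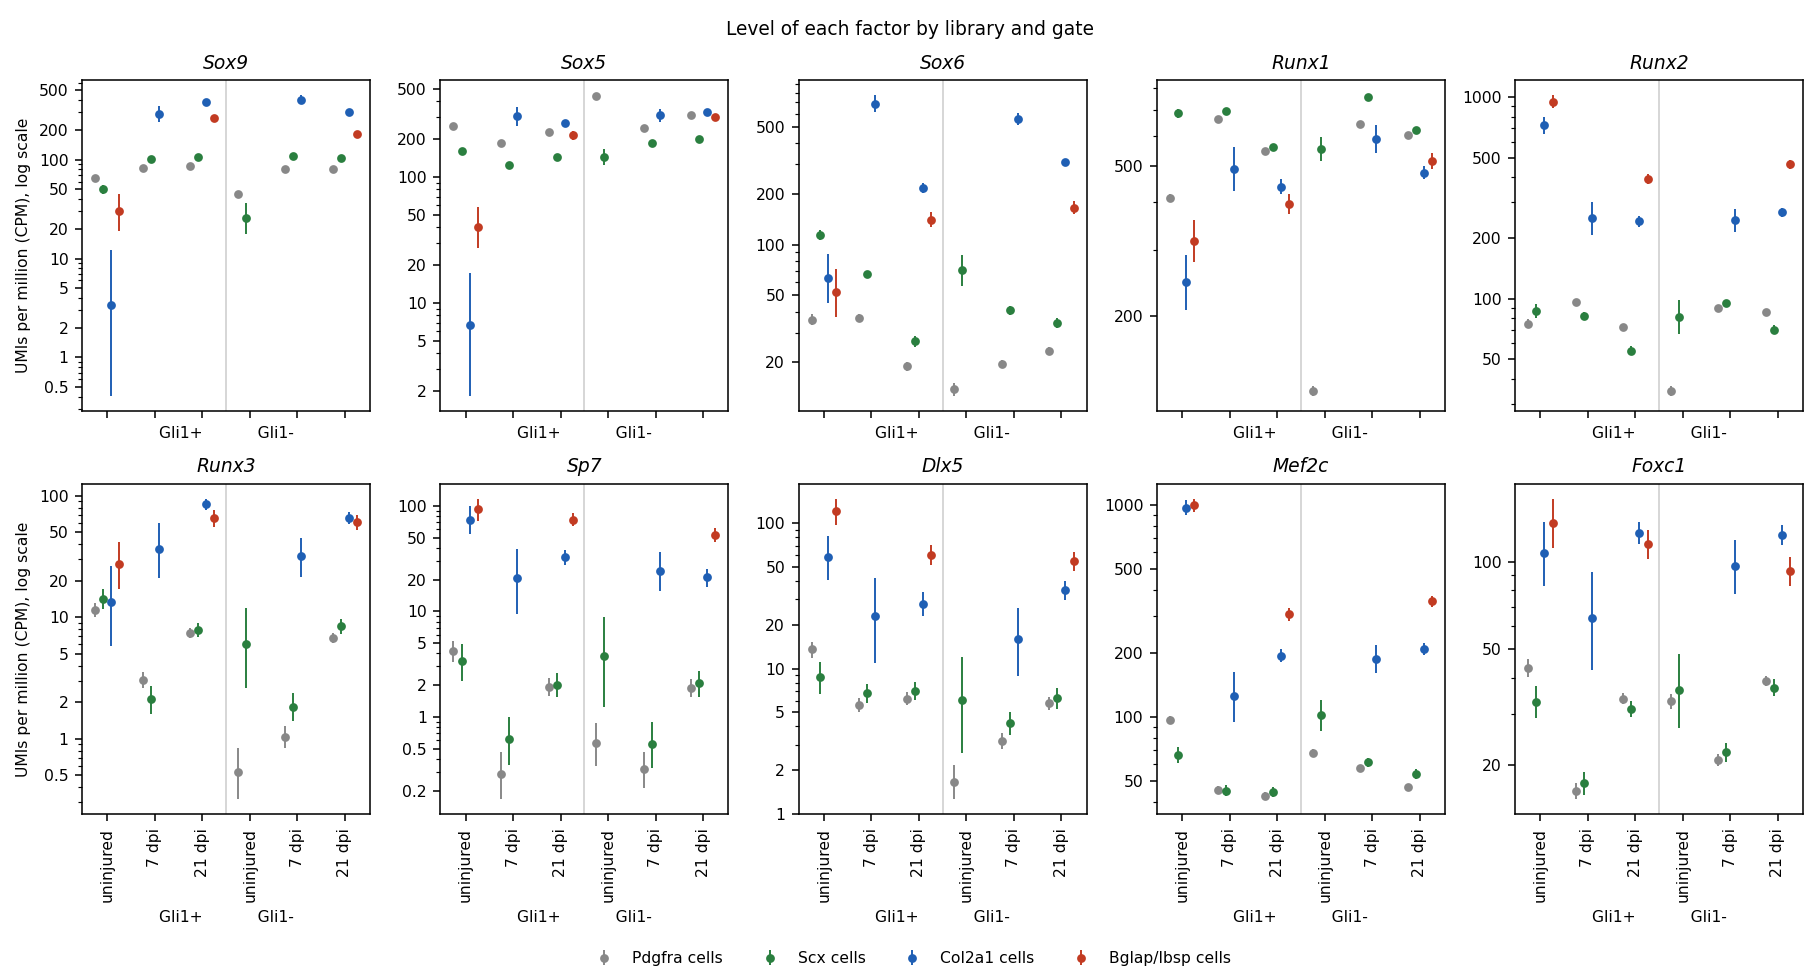
Level of each of the 10 factors in CPM (log axis) in *Pdgfra*, *Scx*, *Col2a1* and *Bglap*/*Ibsp* cells of the 6 libraries, *Gli1*+ left and *Gli1*- right of the line in each panel. Points are sums over the cells of 1 library and bars the exact Poisson 95% intervals, and gates with under 20 cells are left out. *Sox9* in *Col2a1* cells runs from 3.36 CPM in uninjured *Gli1*+ to 404 CPM in *Gli1*- at 7 dpi, and *Sp7* lies above 20 CPM in every *Col2a1* and *Bglap*/*Ibsp* point and below 5 CPM in every other point.

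*Sox9*, the factor that starts the cartilage program, was more abundant in every injured library than in the uninjured ones. Over whole libraries it was at 34.6, 78.8 and 97.3 CPM in *Gli1*+ and at 31.3, 77.9 and 75.1 CPM in *Gli1*-. Cells with at least 5 UMIs of the epidermal keratin *Krt5* held 32.4%, 22.7% and 14.8% of the *Sox9* UMIs in *Gli1*+. *Cd3e* cells held 36.8% of all UMIs in uninjured *Gli1*+, with *Sox9* at 7.13 CPM. In *Pdgfra* cells the levels were 65.8, 82.2 and 86.0 CPM for *Gli1*+, against 44.4, 80.4 and 80.2 CPM for *Gli1*-. The differences with time were thus smaller inside the mesenchymal gate than over the library, and no interval of an uninjured library reached that of an injured one. Within a sex the *Gli1*+ order did not hold at 7 dpi, with a log2 ratio over uninjured of -0.30 (-0.44 to -0.15) among male *Pdgfra* cells against 0.32 over all, and it was 0.78 among female cells at 21 dpi against 0.39 over all. *Col2a1* cells held *Sox9* at 290 CPM at 7 dpi and 386 CPM at 21 dpi in *Gli1*+, and at 404 CPM and then 302 CPM in *Gli1*-, against 3.36 CPM (0.407 to 12.1) in the uninjured *Gli1*+ gate. In *Bglap*/*Ibsp* cells it was at 30.1 CPM in uninjured *Gli1*+, 261 CPM in *Gli1*+ and 181 CPM in *Gli1*- at 21 dpi.

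*Sox5* and *Sox6* encode the partners of SOX9. *Sox5* was already high in uninjured mesenchymal cells, with 255, 185 and 229 CPM in the *Pdgfra* cells of *Gli1*+ and with 439, 246 and 312 CPM in those of *Gli1*-. In *Col2a1* cells it stood at 304 CPM at 7 dpi and 270 CPM at 21 dpi in *Gli1*+, and at 311 CPM and then 330 CPM in *Gli1*-, so it was above the *Pdgfra* level in each of the 4 libraries, most in *Gli1*+ at 7 dpi and with overlapping intervals in *Gli1*- at 21 dpi. It was lower in *Scx* cells than in *Pdgfra* cells in all 6 libraries, for example 145 against 229 CPM in *Gli1*+ at 21 dpi.

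*Sox6* differed more between *Col2a1* and *Pdgfra* cells than *Sox9* or *Sox5* in the injured libraries. Its level in *Pdgfra* cells was 35.9, 36.9 and 19.0 CPM for *Gli1*+, against 13.8, 19.6 and 23.3 CPM for *Gli1*-. Of the 4790 *Gli1*+ cells at 7 dpi, 504 also held at least 5 UMIs of *Krt5*, an epidermal keratin, and the 5 epidermal markers summed to 96.7, 1749 and 329 CPM over time in *Gli1*+. Without cells with a *Ptprc*, *Cd3e*, *Cdh5* or *Krt5* UMI the log2 ratio of *Sox6* at 7 dpi over uninjured was -0.65 in place of 0.04. In *Col2a1* cells it was at 690 and 559 CPM at 7 dpi and at 218 and 309 CPM at 21 dpi in *Gli1*+ and *Gli1*-. The level in *Col2a1* cells was thus lower at 21 than at 7 dpi in both sorts, with log2 ratios of -1.66 (-1.85 to -1.47) in *Gli1*+ and -0.85 in *Gli1*-. The 7 dpi gates hold 31 and 46 cells. In *Scx* cells *Sox6* had 114, 66.9 and 26.6 CPM for *Gli1*+, against 70.5, 40.7 and 34.2 CPM for *Gli1*-, an order of uninjured over 7 over 21 dpi in both sorts. The skeletal muscle markers had the same order in *Scx* cells, with sums of 132, 36.1 and 5.67 CPM for *Gli1*+ and of 302, 24.4 and 6.07 CPM for *Gli1*-, and their part in it was not tested.

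*Runx2*, which directs hypertrophy and bone formation, was highest in *Bglap*/*Ibsp* cells, at 951 CPM in uninjured *Gli1*+ and at 392 and 465 CPM at 21 dpi in *Gli1*+ and *Gli1*-. In *Col2a1* cells it was at 725 CPM in the uninjured *Gli1*+ gate, which is largely the same cells, and between 242 and 268 CPM in the 4 injured libraries. In *Pdgfra* cells it was at 75.0, 96.0 and 72.3 CPM in *Gli1*+ and at 34.7, 90.2 and 85.3 CPM in *Gli1*-. The uninjured *Gli1*- library was the low one, and the other 5 lay within 72.3 and 96.0 CPM. That of uninjured *Gli1*+ holds 31 *Bglap*/*Ibsp* cells, and without the matrix gates its log2 ratio over uninjured *Gli1*- was 0.20 in place of 1.11.

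*Runx1* was abundant in every gate. Its *Pdgfra* level was 412, 662 and 547 CPM for *Gli1*+, against 127, 644 and 604 CPM for *Gli1*-, again with uninjured *Gli1*- apart. In *Scx* cells it was at 554 to 757 CPM in all 6 libraries, uninjured *Gli1*- included, and at 21 dpi it was lower in *Col2a1* than in *Pdgfra* cells, at 440 against 547 CPM in *Gli1*+ and 479 against 604 CPM in *Gli1*-. *Runx1* is thus the only member besides *Sox5* that was not at or past 2-fold higher in *Col2a1* or *Bglap*/*Ibsp* cells at 21 dpi.

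*Runx3* was at 3.05 and 1.04 CPM in the *Pdgfra* cells of *Gli1*+ and *Gli1*- at 7 dpi and at 7.50 and 6.76 CPM at 21 dpi. In *Col2a1* cells it was at 36.5 and 31.8 CPM at 7 dpi and at 85.6 and 65.7 CPM at 21 dpi. Its levels at 21 dpi exceeded those at 7 dpi in both gates and both sorts, which is the opposite order to that of *Sox6* in *Col2a1* cells. At 21 dpi *Col2a1* cells were 2.68% and 2.96% of the cells of the *Gli1*+ and *Gli1*- libraries and held 4.28% and 5.10% of all UMIs. They held 39.7% and 48.0% of the *Runx3* UMIs. The 11.5 CPM (9.98 to 13.2) in uninjured *Gli1*+ *Pdgfra* cells were read in a gate in which 63 of 1774 cells also carried *Cd3e*.

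*Sp7*, a factor required for osteoblasts, was highest in the matrix gates. It was at 92.8 CPM in uninjured *Gli1*+ *Bglap*/*Ibsp* cells and at 74.1 and 53.3 CPM at 21 dpi, and at 0.289 to 4.20 CPM in the *Pdgfra* cells of the 6 libraries. *Bglap*/*Ibsp* cells held 88.8% of the *Sp7* UMIs of uninjured *Gli1*+, 75.5% of those of *Gli1*+ at 21 dpi and 69.5% of those of *Gli1*- at 21 dpi. At 7 dpi UMIs were few and less of them lay there. Of 36 in *Gli1*+, the 13 *Bglap*/*Ibsp* cells held 11.1% and the *Col2a1* cells 25.0%, and of 47 in *Gli1*- the 16 *Bglap*/*Ibsp* cells and the *Col2a1* cells held 48.9% each. *Cdh5* cells, read as an endothelial background, had it at 0 to 1.48 CPM. That gate was not clean, since 111 of 275 *Gli1*+ and 649 of 1630 *Gli1*- cells at 7 dpi also carried *Pdgfra*. The mesenchymal markers summed to 21392 and 29303 CPM in these *Cdh5* gates, against 872 and 998 CPM for the endothelial markers.

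*Dlx5*, a homeobox factor upstream of *Sp7*, was likewise highest in *Bglap*/*Ibsp* cells, at 120 CPM in uninjured *Gli1*+ and 60.7 and 54.9 CPM at 21 dpi. *Mef2c* was at 999 CPM in these cells in uninjured *Gli1*+ and at 306 and 352 CPM at 21 dpi. *Foxc1* was at 136, 115 and 92.8 CPM in the same 3 gates. The uninjured *Gli1*+ gate was thus higher than both 21 dpi gates for *Sp7*, *Dlx5*, *Mef2c*, *Foxc1* and *Runx2*, though the intervals overlapped those of *Gli1*+ at 21 dpi for *Sp7* and *Foxc1*. *Sox9*, *Sox5*, *Sox6*, *Runx3* and *Runx1* had the opposite order, *Runx1* with 316 CPM before injury and 396 and 514 CPM at 21 dpi.

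The *Gli1*+ values of these gates were then expressed as ratios, which restate the same sums. In *Gli1*+ *Bglap*/*Ibsp* cells, 21 dpi over uninjured, 6 of the 10 members were at or past 2-fold, where 29.2% of the genes tested were. The log2 ratio was 3.12 (2.52 to 3.79) for *Sox9*, 2.40 (1.88 to 2.97) for *Sox5*, 1.43 for *Sox6* and 1.25 for *Runx3*. It was -1.28 (-1.42 to -1.14) for *Runx2* and -1.71 (-1.85 to -1.56) for *Mef2c*. The uninjured gate holds 37 cells, and its higher summed bone markers and lower summed cartilage markers moved with these values. Their part in the result was not tested.

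At 21 dpi, when *Col2a1* cells were most numerous, 8 of the 10 members were at least 2-fold higher in *Col2a1* cells than in the other *Pdgfra* cells, in *Gli1*+ and again in *Gli1*-. Of all genes tested, 7.23% in *Gli1*+ and 7.16% in *Gli1*- were higher by this much. The median log2 ratio over the members was 2.26 and 2.17, against -0.18 and -0.18 over all genes. The members were chosen with earlier results of these data known, so such counts describe the list and are no test of it. No member was at least 2-fold lower, where 18.0% and 17.0% of genes were. The largest log2 ratios in *Gli1*+ were those of *Sp7* with 4.63 (4.21 to 5.06), *Sox6* with 4.02 (3.88 to 4.16) and *Runx3* with 3.77 (3.56 to 3.99). *Sox6* led in *Gli1*-, with 4.50 (4.38 to 4.63), followed by *Sp7* with 3.95 and *Runx3* with 3.83.

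The other 5 of the 8 lay between 1.75 and 2.81 in both sorts. *Sox9* was at 2.27 and 2.08, *Mef2c* at 2.30 and 2.26, and *Runx2* at 1.82 and 1.75. *Sox5* was at 0.25 and 0.09 and *Runx1* at -0.32 and -0.34. The same 8 members were at or past 2-fold at 7 dpi in both sorts, where 11.8% and 10.4% of genes were higher by this much.

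In *Bglap*/*Ibsp* cells at 21 dpi the same 8 members were again at or past 2-fold over the other *Pdgfra* cells in both sorts, against 6.81% and 7.34% of genes. *Sp7* had the largest log2 ratio, 6.89 (6.36 to 7.45) in *Gli1*+ and 6.63 (6.07 to 7.23) in *Gli1*-. *Dlx5* was at 3.54 and 3.62, *Runx3* at 3.26 and 3.45, and *Mef2c* at 3.03 and 3.07. *Sox9* and *Foxc1* were lowest of the 8, at 1.66 and 1.21 and at 1.83 and 1.30. In *Gli1*-, *Sox9* was near its *Pdgfra* level in *Bglap*/*Ibsp* cells outside the *Col2a1* gate, as given below. Gated cells were deeper than *Pdgfra* cells, with medians of 14026 to 15018.5 against 9459 and 9659 UMIs, and with every cell thinned to 2000 UMIs the 8 members stayed past 2-fold in both gates and sorts, except *Sp7* in *Gli1*- *Col2a1* cells, which then had under 20 UMIs.

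In *Scx* cells at 21 dpi none of the 10 members was at or past 2-fold against the other *Pdgfra* cells in either sort, where 10.2% and 9.60% of genes were. *Sox9* was at 0.48 and 0.54, *Sox6* at 0.54 and 0.68, *Sox5* at -0.77 and -0.75, and *Runx2* at -0.46 and -0.32. *Sox6* was further from 0 in uninjured *Scx* cells, at 1.97 (1.81 to 2.14) in *Gli1*+ and 2.41 (2.07 to 2.74) in *Gli1*-. The uninjured gates hold 640 and 167 *Scx* cells, and the epidermal markers summed to 1047 CPM in those of *Gli1*+ against 4.55 CPM in those of *Gli1*-. The 4 skeletal muscle markers were higher in the uninjured *Scx* than *Pdgfra* cells, at 132 against 50.1 CPM in *Gli1*+ and 302 against 19.1 CPM in *Gli1*-, and their part in the *Sox6* ratios was not tested.

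**Figure D2:**
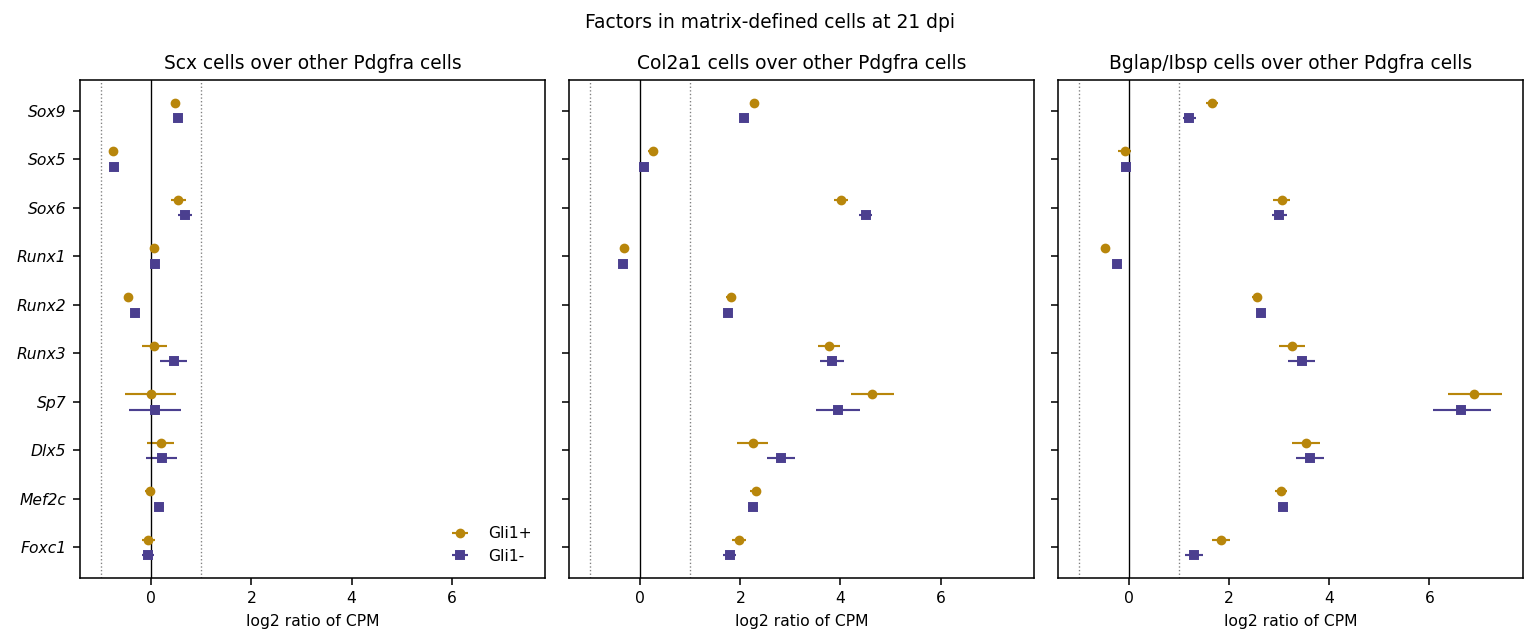
Log2 ratio of CPM at 21 dpi for each factor in *Scx*, *Col2a1* and *Bglap*/*Ibsp* cells over the other *Pdgfra* cells of the same library, with 95% counting intervals as bars and dotted lines at 2-fold. The 10 factors lie between the dotted lines in *Scx* cells, and 8 of 10 lie to the right of the upper line in the other panels in both sorts.

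The gates overlap, with 71 and 91 cells at 21 dpi in both the *Col2a1* and the *Bglap*/*Ibsp* gate, so cells of 1 gate only were compared. This comparison was added after the data were seen. It set 97 *Bglap*/*Ibsp* cells against 191 *Col2a1* cells in *Gli1*+ and 119 against 231 in *Gli1*-. *Runx2*, *Sp7*, *Dlx5* and *Mef2c* were at least 2-fold higher on the *Bglap*/*Ibsp* side in both sorts, where 4.73% and 7.08% of genes were, and *Sox9* and *Sox6* at least 2-fold higher on the *Col2a1* side in both, where 8.65% and 6.60% of genes were.

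The levels of 4 of these 6 members show the difference directly. *Sp7* was at 61.8 and 58.8 CPM in the *Bglap*/*Ibsp* cells against 7.37 and 9.44 CPM in the *Col2a1* cells of *Gli1*+ and *Gli1*-, and *Runx2* at 439 and 508 against 192 and 202 CPM. *Sox9* was at 175 and 83.9 against 407 and 311 CPM, and *Sox6* at 101 and 76.4 against 237 and 330 CPM. In *Gli1*- the 83.9 CPM of *Sox9* was near its level in *Pdgfra* cells. Its 2-fold call in the whole *Gli1*- *Bglap*/*Ibsp* gate thus rested on cells of both gates. *Runx3* was lower on the *Bglap*/*Ibsp* side by -1.06 (-1.53 to -0.62) on the log2 scale in *Gli1*+ and by -0.86 (-1.36 to -0.39) in *Gli1*-. *Foxc1*, *Sox5* and *Runx1* did not pass 2-fold in either sort, with *Foxc1* at -0.56 and -0.85 and *Runx1* at -0.14 and 0.23.

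Cells of both gates did not simply lie between. In the 71 *Gli1*+ cells *Mef2c* was at 396 CPM, against 208 CPM in cells of the *Bglap*/*Ibsp* gate alone and 99.4 CPM in cells of the *Col2a1* gate alone. In the 91 *Gli1*- cells it was at 507 CPM against 206 and 81.3 CPM. *Runx3* was also at its highest there, at 88.5 CPM in *Gli1*+ and 93.7 CPM in *Gli1*-, though in *Gli1*+ it was close to the 84.3 CPM of *Col2a1* cells. *Sox9* was at 341 and 283 CPM and *Runx2* at 349 and 420 CPM in these cells, so each was near the level of the gate in which it was high.

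**Figure D3:**
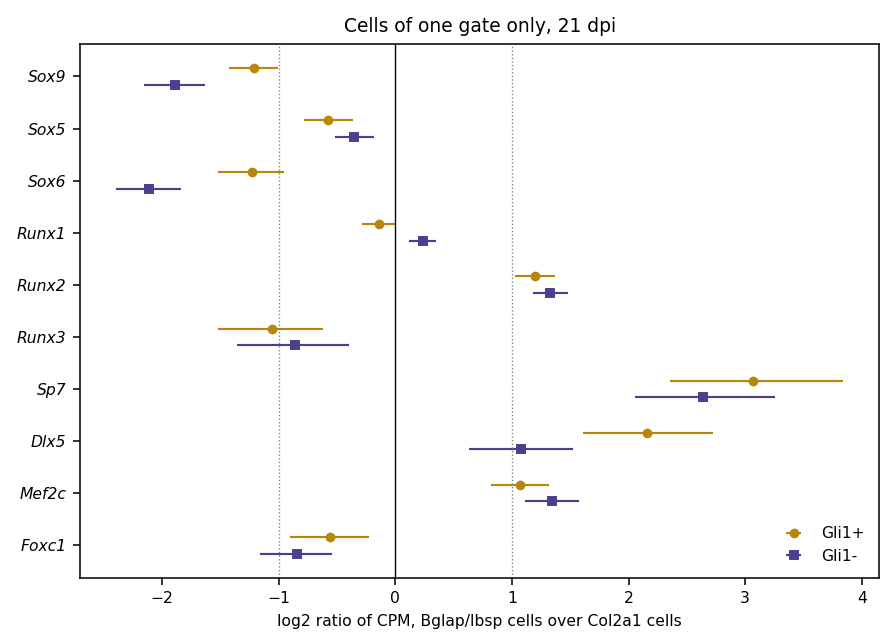
Log2 ratio of CPM at 21 dpi for each factor in *Bglap*/*Ibsp* cells outside the *Col2a1* gate over *Col2a1* cells outside the *Bglap*/*Ibsp* gate, with 95% counting intervals and dotted lines at 2-fold. *Runx2*, *Sp7*, *Dlx5* and *Mef2c* lie at or above 1.07 and *Sox9* and *Sox6* at or below -1.22 in both sorts.

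Cells of the mesenchymal and matrix gates were also grouped by their number of *Col2a1* UMIs. At 21 dpi *Gli1*+ cells with 0, 1 to 4, 5 to 49 and 50 or more *Col2a1* UMIs had *Sox9* at 82.4, 90.4, 219 and 492 CPM. *Gli1*- cells had it at 72.1, 79.0, 198 and 345 CPM. *Runx3* followed with 6.35, 5.89, 38.4 and 116 CPM for *Gli1*+, and with 4.49, 5.31, 32.4 and 79.2 CPM for *Gli1*-. For these genes levels at 1 to 4 *Col2a1* UMIs were thus near those at 0. They were higher at 5 to 49 UMIs and higher again at 50 or more. Since the groups were set to meet at the gate, the count at which levels rise cannot be read from them.

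*Sp7* did not go on from 5 to 49 to 50 or more UMIs in *Gli1*+, with 34.2 and 31.6 CPM, and in *Gli1*- it was at 12.4 CPM (7.35 to 19.6), from 18 UMIs, and 24.4 CPM (19.6 to 30.2), with intervals that overlap in both sorts. *Sox5* was at 204, 186, 291 and 257 CPM in *Gli1*+. *Runx1* went the other way, from 558 and 609 CPM at 0 UMIs to 375 and 444 CPM at 50 or more. *Col2a1* alone was at 26406 CPM in the *Gli1*+ cells with 50 or more UMIs, and the part of this share of the UMIs in the lower *Runx1* was not tested.

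**Figure D4:**
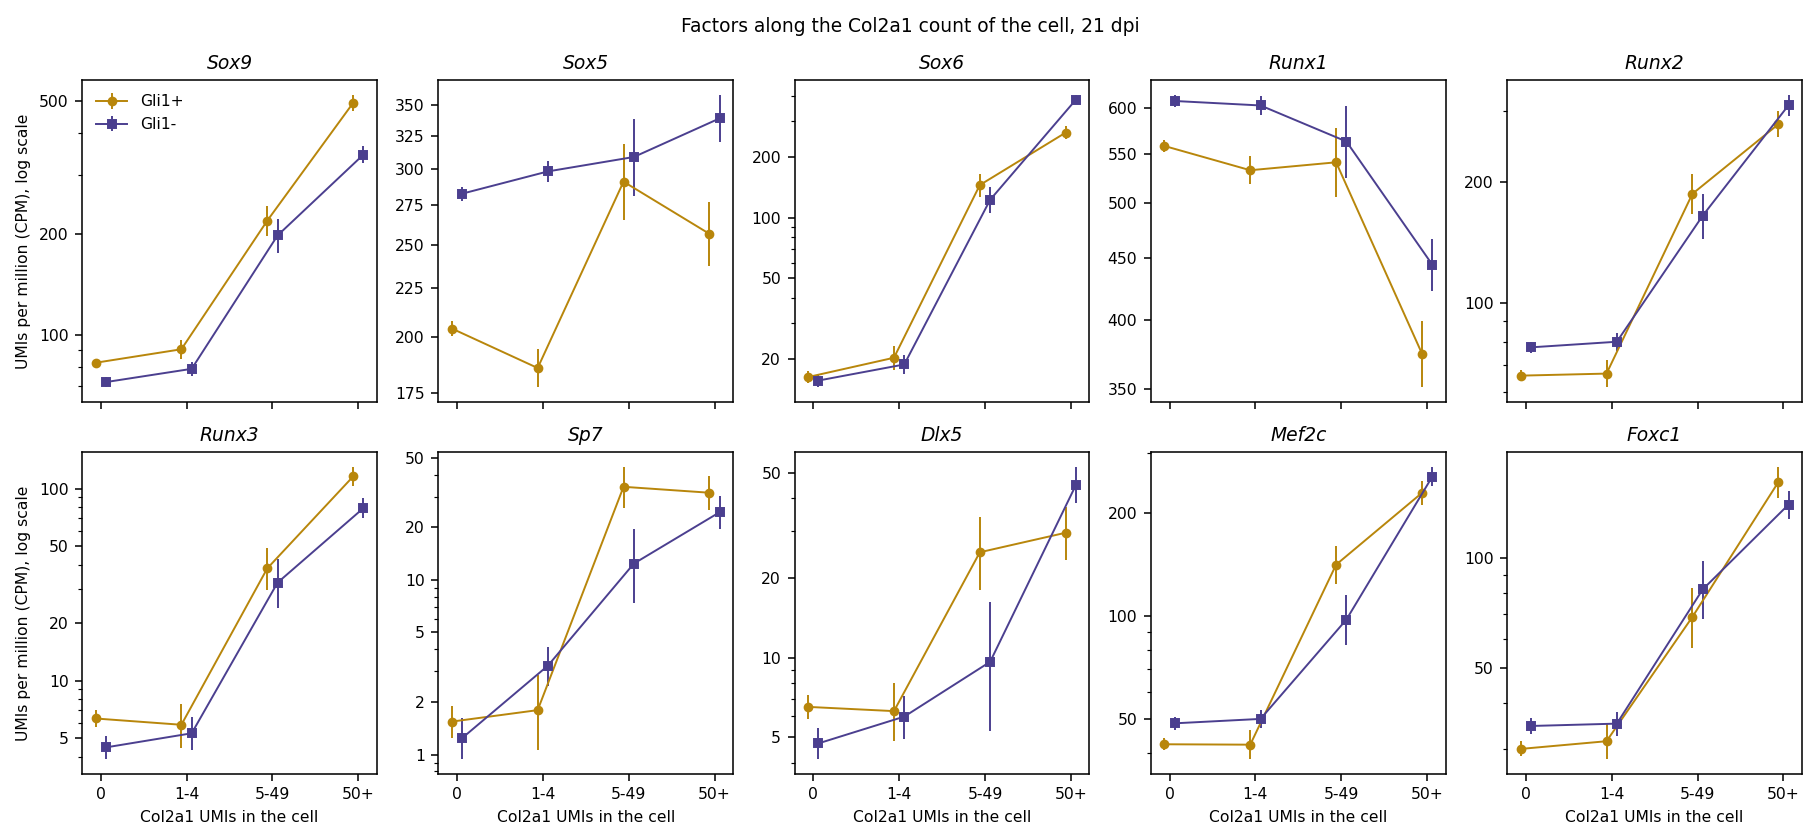
Level of each factor in CPM (log axis) at 21 dpi in cells of the *Pdgfra*, *Scx*, *Col2a1* or *Bglap*/*Ibsp* gate, grouped by *Col2a1* UMIs per cell, with exact Poisson 95% intervals and 1 line per sort. *Sox9* goes from 82.4 to 492 CPM in *Gli1*+ and from 72.1 to 345 CPM in *Gli1*-, while *Runx1* goes from 558 to 375 and from 609 to 444 CPM.

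Single cells were compared after each was thinned to 2000 UMIs. At 21 dpi, *Sox9* was seen in 40.9% of 257 *Gli1*+ and 33.5% of 319 *Gli1*- *Col2a1* cells, and in 12.0% and 10.8% of *Pdgfra* cells. Before thinning the shares were 79.4%, 76.1%, 33.8% and 31.5%. In *Cdh5* cells, which serve as a background, *Sox9* was seen in 4.69% and 4.76% of thinned cells, with median depths of 6483.5 and 6372 UMIs before thinning. Unthinned, 65 of 370 and 451 of 2144 cells of this gate also carried *Pdgfra*. It also held 2 and 37 *Col2a1* cells and 1 and 16 *Bglap*/*Ibsp* cells. *Sp7* was seen in 12.0% and 9.09% of thinned *Bglap*/*Ibsp* cells, in 0.368% and 0.221% of *Pdgfra* cells and, among *Cdh5* cells, in 0 of 341 in *Gli1*+, which allows up to 0.880%, and 0.166% in *Gli1*-. The interval of the *Sp7* share in *Pdgfra* cells, 0.222% to 0.574% in *Gli1*+ and 0.114% to 0.387% in *Gli1*-, overlapped that of *Cdh5* cells in both sorts.

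For some pairs, the share of thinned cells with 1 factor differed by whether the other was seen. Among *Pdgfra* cells at 21 dpi, *Sox6* was seen in 6.47% (4.66 to 8.71) of *Gli1*+ cells with *Sox9* and 2.70% (2.25 to 3.22) of those without, and in 6.68% against 2.65% of *Gli1*- cells. *Dlx5* was seen in 3.88% of cells with *Runx2* and 1.03% of those without in *Gli1*+, and in 3.07% against 0.697% in *Gli1*-. *Runx2* itself was seen in 13.1% of *Gli1*+ cells with *Sox9* and 11.8% of those without, and in 14.0% against 12.5% in *Gli1*-, with intervals that overlap. *Sp7* was seen in 1.62% (0.779 to 2.96) of *Gli1*+ cells with *Runx2* and 0.198% (0.0905 to 0.375) of those without, and in 0.584% against 0.169% in *Gli1*-, with intervals that overlap in *Gli1*-. The 21 dpi *Pdgfra* gates held 107 and 154 *Col2a1* cells, and their part in these shares was not tested.

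The same pairs did not differ in every library and gate. In *Gli1*+ *Pdgfra* cells at 7 dpi, where the gate held 10 *Col2a1* and 504 *Krt5* cells, *Sox6* was seen in 5.87% of cells with *Sox9* and 5.42% of those without, and *Dlx5* in 1.13% of cells with *Runx2* and 1.27% of those without. In *Gli1*- at 7 dpi the *Sox6* shares were 4.72% (3.31 to 6.50) against 2.83% (2.42 to 3.30), with intervals that do not overlap. The *Dlx5* shares there were 0.80% against 0.712%. In uninjured *Gli1*+ *Dlx5* was seen in 6.30% (2.76 to 12.0) of cells with *Runx2* and 1.17% (0.703 to 1.81) of those without. In uninjured *Gli1*- it was in 0.694% against 0.192%, with overlapping intervals. In uninjured *Pdgfra* cells *Sox6* was seen in 16.2% of those with *Sox9* and 4.55% of those without in *Gli1*+, and in 4.11% against 2.53% in *Gli1*-, with overlapping intervals in *Gli1*-. *Runx2* was seen in 18.3% (15.6 to 21.3) of *Gli1*- *Pdgfra* cells with *Sox9* at 7 dpi and 12.8% (12.0 to 13.7) of those without, and in 10.1% against 5.49% in uninjured *Gli1*-, where the intervals do not overlap either. In *Gli1*+ it was in 14.3% against 15.1% at 7 dpi and 8.12% against 7.12% in uninjured tendon. In *Scx* cells at 21 dpi the *Sox6* shares were 5.63% against 5.17% in *Gli1*+ and 8.61% against 5.21% in *Gli1*-. Cells are not replicates, and each share describes 1 library.

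In *Pdgfra* cells after tenotomy, the 2 sorts gave different lists. In *Gli1*+ at 7 dpi over uninjured, 5 of the 10 members were at least 2-fold lower, against 21.8% of genes, and none was at least 2-fold higher, against 14.2%. These were *Sp7* with -3.86 (-4.74 to -3.07), *Runx3* with -1.91, *Foxc1* with -1.41, *Dlx5* with -1.27 and *Mef2c* with -1.09. The T cell markers went from 128 to 13.8 CPM in the same cells, and without cells with a *Ptprc*, *Cd3e*, *Cdh5* or *Krt5* UMI *Runx3* was at -0.77 (-1.55 to -0.05) and *Mef2c* at -0.87. At 21 dpi 3 were lower, against 22.5% of genes, and none higher, against 8.42%. The 3 were *Mef2c* with -1.18, *Sp7* with -1.13 and *Dlx5* with -1.12. Scaling by the trimmed mean of M values (TMM) added 0.29 and 0.44 to every log2 ratio of these comparisons and left 3 of the 5 and 0 of the 3 past 2-fold. Among all genes past 2-fold, the share that was higher went from 39.5% to 55.2% at 7 dpi and from 27.2% to 53.5% at 21 dpi with this scaling.

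Much of the difference in *Sp7* and *Mef2c* lay in few uninjured cells. Of the 1774 uninjured *Gli1*+ *Pdgfra* cells, 31 were also in the *Bglap*/*Ibsp* gate. Without *Col2a1* and *Bglap*/*Ibsp* cells, *Sp7* was at -0.44 at 7 dpi and 0.52 (-0.79 to 2.09) at 21 dpi, and *Mef2c* at -0.34 and -0.62. *Runx2* moved up as well in the same step, from 0.36 to 1.36 at 7 dpi and from -0.05 to 0.80 at 21 dpi. At 7 dpi it was thus past 2-fold higher without these cells. *Foxc1* at 7 dpi stayed at -1.29. *Runx3* at 21 dpi went from -0.61 to 0.73 when cells with a *Ptprc*, *Cd3e*, *Cdh5* or *Krt5* UMI were left out.

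Sex changed with time in *Gli1*+. Among male cells, 410 uninjured and 3692 at 7 dpi, *Sp7* was at -3.39, *Dlx5* at -1.95 and *Foxc1* at -1.63, while *Runx3* was at -0.86 and *Mef2c* at -0.74. Among female cells, 1128 uninjured and 4961 at 21 dpi, *Sp7* was at -1.34 and *Mef2c* at -1.31, while *Dlx5* was at -0.87. The calls for *Runx3* and *Mef2c* at 7 dpi and for *Dlx5* at 21 dpi were thus not past 2-fold within a sex.

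In *Gli1*- at 7 dpi, *Runx1* and *Runx2* were at least 2-fold higher, against 15.1% of genes, and none was at least 2-fold lower, against 16.6%. TMM scaling added 0.16 to every log2 ratio and put 5 members past 2-fold, with *Sox9* at 1.02, *Runx3* at 1.12 and *Dlx5* between them beside these 2, while the share of higher genes among those past 2-fold went from 47.7% to 56.8%. At 21 dpi 5 members were higher, against 13.8% of genes, and none lower, against 17.5%. With TMM scaling *Sox9* passed too, at 1.04, which made 6. Of all genes past 2-fold 44.1% were higher, or 54.9% with TMM scaling. *Runx1* was at 2.34 (2.30 to 2.39) and 2.25 (2.20 to 2.29) at 7 and 21 dpi, and *Runx2* at 1.38 and 1.30. *Runx3* was at 3.66 (2.98 to 4.43) at 21 dpi, *Dlx5* at 1.79 and *Sp7* at 1.74. The cells whose sex could be read were male in both libraries of the 7 dpi comparison but for 1 *Pdgfra* cell, and among male cells alone *Runx1* was at 2.34 and *Runx2* at 1.44. At 21 dpi 5248 *Pdgfra* cells were female and 2 male, with 0 female cells before injury, so no within-sex value could be had.

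Without *Col2a1* and *Bglap*/*Ibsp* cells, *Runx1*, *Runx2*, *Runx3* and *Dlx5* stayed past 2-fold in *Gli1*- at 21 dpi, at 2.28, 1.16, 3.40 and 1.47. *Sp7* had 0 UMIs left in the uninjured cells, so no ratio is given. *Sox6* went from 0.75 to -0.12, so the higher level was not seen outside the matrix gates. The uninjured *Gli1*- library was the shallowest, and 850 of its 5108 *Pdgfra* cells also carried *Cdh5*. Leaving out cells with a *Ptprc*, *Cd3e*, *Cdh5* or *Krt5* UMI gave 2.25 for *Runx1*, and thinning kept it past 2-fold.

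**Figure D5:**
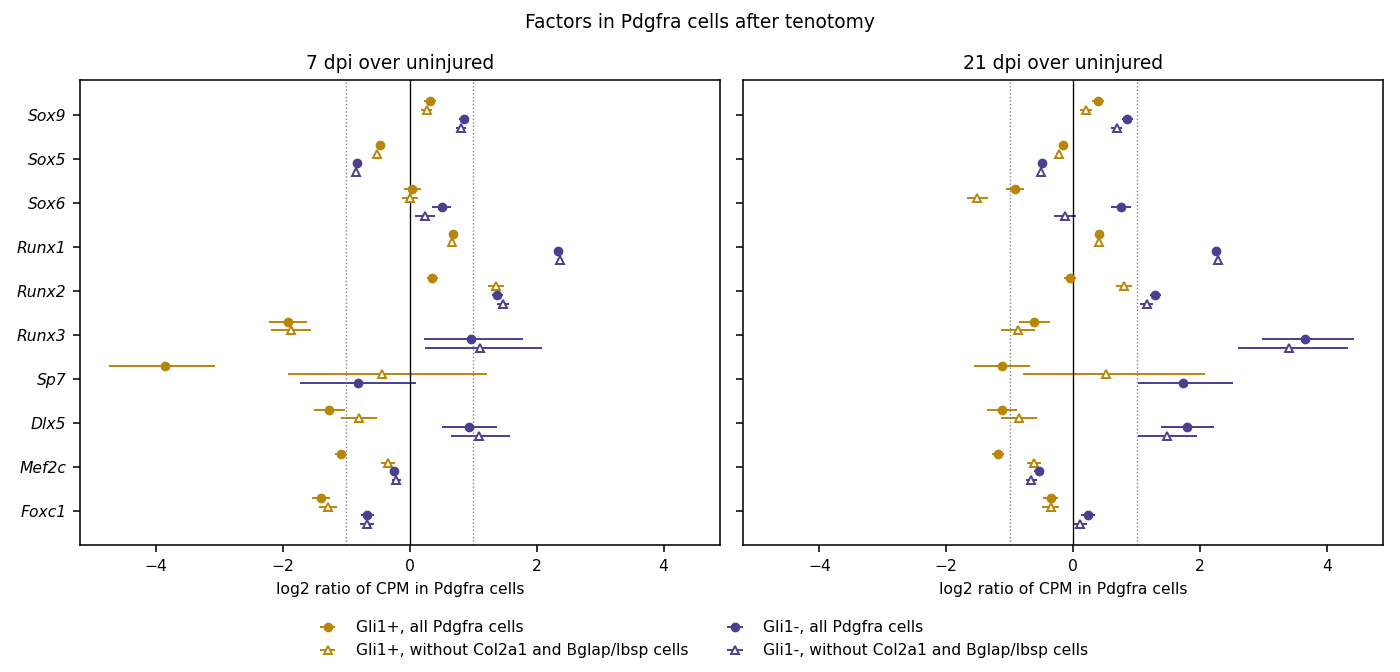
Log2 ratio of CPM in *Pdgfra* cells at 7 dpi (left) and 21 dpi (right) over uninjured, for all *Pdgfra* cells (filled circles) and without *Col2a1* and *Bglap*/*Ibsp* cells (open triangles), with 95% counting intervals and dotted lines at 2-fold. *Runx1* in *Gli1*- is at 2.34 and 2.25 over all cells and at 2.37 and 2.28 without the matrix gates, to the right of the line, and *Sp7* in *Gli1*+ goes from -3.86 to -0.44 at 7 dpi; *Sp7* in *Gli1*- has no triangle, with under 20 UMIs at 7 dpi and 0 uninjured UMIs at 21 dpi.

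The sorts themselves differed most in uninjured tendon. There the libraries also differed in sex and in *Cntn5*, so sort and mice cannot be told apart. In *Pdgfra* cells, *Gli1*+ over *Gli1*-, 6 members were at least 2-fold higher before injury, against 14.2% of genes, and none was lower, against 5.66%. Of all genes past 2-fold 71.5% were higher, or 61.2% with TMM scaling, which left 5 members past 2-fold. *Runx3* was at 4.42 (3.73 to 5.21), *Dlx5* at 3.02, *Sp7* at 2.89, *Runx1* at 1.70, *Sox6* at 1.38 and *Runx2* at 1.11. T cell markers differed in the same direction in these cells. All 8 were detected in *Gli1*+, summing to 128 CPM, and 7 of 8 in *Gli1*-, summing to 3.12 CPM with *Cd3g* at 0. Without cells with a *Ptprc*, *Cd3e*, *Cdh5* or *Krt5* UMI, *Runx3* was at 3.45 (2.56 to 4.47) and *Runx1* at 1.63, and the other 4 stayed past 2-fold. Among male cells *Sox9* passed with 1.20 and *Runx2* did not, with 0.77, while the other 5 stayed past 2-fold. The 7 bone markers summed to 580 CPM in *Gli1*+ *Pdgfra* cells and to 116 CPM in those of *Gli1*-, where *Mepe* was at 0. Of the *Sp7* UMIs of the libraries, *Bglap*/*Ibsp* cells held 71 of 80 and 19 of 21. Without *Col2a1* and *Bglap*/*Ibsp* cells *Runx2* was at 0.20, *Sp7* had too few UMIs for a ratio, and *Runx3*, *Dlx5*, *Runx1* and *Sox6* stayed past 2-fold. At 7 dpi only *Runx3* passed, with 1.55 (1.17 to 1.94), against 8.14% of genes either way. At 21 dpi none passed, against 5.49%, and the largest ratio was -0.45 for *Sox5*.

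The *Col2a1* and *Bglap*/*Ibsp* cells of the 2 sorts were also near each other at 21 dpi. No member was at or past 2-fold in *Gli1*+ over *Gli1*- *Col2a1* cells, against 4.68% of genes, or in *Bglap*/*Ibsp* cells, against 5.56%. The log2 ratios lay between -0.51 for *Sox6* and 0.64 for *Sp7* in *Col2a1* cells and between -0.47 for *Sox5* and 0.53 for *Sox9* in *Bglap*/*Ibsp* cells. *Sox9* was at 0.35 (0.25 to 0.45) and 0.53 (0.37 to 0.69) in these gates, so it was higher in *Gli1*+ in both by less than 2-fold.

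Other cells held much of the UMIs of several members. In uninjured *Gli1*+, 2545 of the 7057 cells carried *Cd3e*, and they held 77.3% of the *Runx3*, 59.1% of the *Runx2* and 49.9% of the *Runx1* UMIs of the library. *Runx3* was at 238 CPM and *Runx1* at 936 CPM in them, both at least 2-fold over *Pdgfra* cells, where 21.1% of genes were higher by this much, and 7 of the other members were at least 2-fold lower, where 31.2% were. *Runx2* was at 146 CPM in them, with a log2 ratio of 0.96. No other library had more than 2 *Cd3e* cells, and the whole-library level of *Runx3* was 113, 2.94 and 9.23 CPM in *Gli1*+.

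*Mef2c* was at 141 to 277 CPM in *Cdh5* cells, at least 2-fold over *Pdgfra* cells in all 6 libraries, and *Cdh5* cells held 59.4% of its UMIs in uninjured *Gli1*-. The shares of genes higher by this much came to 15.5%, 9.94% and 16.1% for *Gli1*+, and to 15.5%, 8.47% and 13.3% for *Gli1*-. *Sox6* was at 213 CPM in *Krt5* cells of *Gli1*+ at 7 dpi, which held 67.0% of the *Sox6* and 40.9% of the *Dlx5* UMIs of that library. It was at least 2-fold over *Pdgfra* cells in the 5 libraries with *Krt5* cells, where 17.2%, 8.81% and 15.7% of genes were in *Gli1*+ and 14.5% and 18.3% in *Gli1*- at 7 and 21 dpi. Whole-library sums do not by themselves separate the number of cells of a type from the level in them. Levels inside the gates are given for this reason.

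The known targets of the members were read from lists. The genes that set a gate, *Col2a1* in 1 and *Ibsp* and *Bglap* in the other, had to be higher there and are no finding. Of 16 cartilage matrix genes under SOX control, *Col2a1* included, 16 were at least 2-fold higher at 21 dpi in *Col2a1* cells and also in *Bglap*/*Ibsp* cells, in both sorts. Of all genes 7.23% and 7.16% were in *Col2a1* cells of *Gli1*+ and *Gli1*-, and 6.81% and 7.34% in *Bglap*/*Ibsp* cells, which is the background for each list here. Their median log2 ratio in *Col2a1* cells was 7.76 in *Gli1*+ and 7.99 in *Gli1*-, led, apart from *Col2a1*, by *Snorc* and *Cnmd* in both. Of 13 measured osteoblast targets, *Ibsp* and *Bglap* included, 11 in *Gli1*+ and 10 in *Gli1*- were higher in *Bglap*/*Ibsp* cells, and 8 and 10 in *Col2a1* cells. Of 10 hypertrophy genes, *Ibsp* included, 9 were higher in *Bglap*/*Ibsp* cells in both sorts, and 8 and 7 in *Col2a1* cells. In *Bglap*/*Ibsp* cells *Ihh* was at 11.93 and 8.65 and *Col10a1* at 11.75 and 10.30. *Ibsp*, *Alpl*, *Spp1* and *Pth1r* are in both the hypertrophy and the osteoblast list, so the counts of these lists are not separate. Of the *Col10a1* UMIs in *Gli1*+, 3933 lay in *Col2a1* cells and 3859 in *Bglap*/*Ibsp* cells, while *Col2a1* cells outside the *Bglap*/*Ibsp* gate held 74 and *Bglap*/*Ibsp* cells outside the *Col2a1* gate held 0, so nearly all lay in the 71 cells of both gates. *Ihh* signals from prehypertrophic chondrocytes and *Col10a1* encodes the collagen of hypertrophic cartilage.

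Partners and relatives of the members went both ways. Of 36 and 35 measured in *Gli1*+ and *Gli1*-, 8 and 8 were at least 2-fold higher and 4 and 3 at least 2-fold lower in *Col2a1* cells, with medians of -0.18 and -0.15, against -0.18 and -0.18 over all genes. Of all genes 7.23% and 7.16% were higher and 18.0% and 17.0% lower. *Foxa2* and *Foxa3*, which act in chondrocyte hypertrophy, had the largest ratios, 7.81 (6.18 to 10.13) and 7.50 in *Gli1*+ and 6.78 and 6.09 in *Gli1*-, from 3 to 5 UMIs in the other *Pdgfra* cells.

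In *Pdgfra* cells at 21 dpi over uninjured, the SOX list was at least 2-fold higher for 10 of 15 measured genes in *Gli1*+ and 16 of 16 in *Gli1*-. *Sox9* itself differed by 0.39 and 0.85 on the log2 scale. List counts at 7 dpi are left out, and lower genes are counted for the osteoblast targets only. The hypertrophy genes were higher for 6 of 10 and 8 of 10. The osteoblast targets split, with 5 higher and 7 lower of 15 in *Gli1*+ and 6 higher and 3 lower of 13 in *Gli1*-. Of all genes 8.42% were higher and 22.5% lower in *Gli1*+, and 13.8% higher and 17.5% lower in *Gli1*-. The *Col2a1* and *Bglap*/*Ibsp* cells inside the *Pdgfra* gate are part of these counts.

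Genes were last ranked by how alike their levels were to each member over 21 combinations of library and gate, each cell being placed in 1 gate, among 17865 genes. These correlations are a description, since combinations share libraries and depth. *Sp7* was most like *Slc13a5*, with Pearson's r of 0.98, followed by *Slc8a3* and *Gprc5c*. *Dlx5* and *Runx2* both had *Sp7* among their 3 most alike genes, each at 0.93, so these 3 members had like patterns.

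*Sox9* was most like *Rbp4*, with 0.93, *Tpi1* and *Itm2a*. *Sox6* was most like *Mboat2*, *P4ha1* and *Raph1*, each at 0.95. *Sox5* was most like *Fnip2*, *Runx3* most like *Dock8*, *Mef2c* most like *Gm55122* and *Foxc1* most like *Sgms2*, with r from 0.92 to 0.96. *Runx1* had the weakest best match, *Arl4c* with 0.83. Between members, *Sp7* and *Dlx5* were at 0.93, *Sox9* and *Sox5* at 0.78, *Sox9* and *Sox6* at 0.60 and *Sox9* and *Runx2* at 0.06. *Sox5* and *Sox6* were at 0.23. *Sox6* was more like *Foxc1* (0.74), *Sp7* and *Dlx5* (0.66 each) and *Mef2c* (0.65) than *Sox9*. *Mef2c* was also like *Dlx5* and *Foxc1*, at 0.90 each, and *Sp7*, at 0.88.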

How the data were processed

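Achilles tendon cells of 6 libraries (2 sorts by 3 times, 1 library each) were analysed from the filtered count matrices that the authors deposited, which hold UMI counts per gene and cell. The submitters' processing notes name Cell Ranger 3.1.0, STAR and mm10, while the matrix headers name Cell Ranger 9.0.0, and the annotation release is not given in the sources used here. Cells were kept with at least 200 genes and 1000 UMIs, log10 genes over log10 UMIs of at least 0.7, and at most 5% mitochondrial and 5% hemoglobin UMIs. The cells with the highest Scrublet scores (scanpy 1.11.5) were removed as doublets at 0.8% per 1000 cells. Counts were summed per library and gate and divided by the summed UMIs, with exact Poisson intervals, and ratios were given exact binomial intervals, both at 95% (scipy 1.17.1). A gene was tested with at least 20 UMIs over both sums and counted at 2-fold or more, and its percentage over all genes tested is printed beside the members' counts. Intervals hold counting error only, cells are not replicates, and no p-value was computed. Gates with under 20 cells were left out. All 10 members are named, together with the genes of their target and partner lists that had the largest ratios. The members and lists were chosen with earlier results of these data known. Sexes were called per cell from *Xist* and Y-linked genes. The ratio script was tested on simulated data. Alternatives were other scaling (TMM, edgeR 4.0.16), filters, gates, thinning and subsets of cells.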

Additional observations from a re-analysis of the deposited data

Results flagged for a closer look

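For 9 pairs of a member and a contrast, the log2 ratio had opposite signs in the conditions compared. With 1 library per condition none of these differences was tested. In *Pdgfra* cells at 7 dpi over uninjured, *Runx3* was at -1.91 in *Gli1*+ and 0.96 in *Gli1*-, and *Dlx5* at -1.27 and 0.93. At 21 dpi over uninjured, *Runx3* was at -0.61 and 3.66, *Sp7* at -1.13 and 1.74, and *Dlx5* at -1.12 and 1.79. The *Gli1*+ sign turned for *Runx3*, to 0.73 without cells with a *Ptprc*, *Cd3e*, *Cdh5* or *Krt5* UMI and 0.12 with cells thinned to 2000 UMIs, and for *Sp7*, to 0.52 without *Col2a1* and *Bglap*/*Ibsp* cells and 0.25 when thinned, so for these genes the opposite signs depend on which cells and counts were used. The contrasts of the sorts run opposite ways from uninjured libraries in which *Gli1*+ was the higher for all 3 genes.

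In *Gli1*+ *Col2a1* cells over the other *Pdgfra* cells, *Sox9* was at 2.27 at 21 dpi and -4.33 in uninjured tendon, and *Sox5* at 0.25 and -5.29. In *Bglap*/*Ibsp* cells *Sox9* was at 1.66 and -1.18. The uninjured gates hold 22 and 37 cells, with 15 cells in both. In *Gli1*- *Scx* cells *Runx2* was at -0.32 at 21 dpi and 1.26 in uninjured tendon, where the gate holds 167 cells.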

How the results depend on the processing

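Of 67 member ratios past 2-fold, 632 of 676 values under the alternatives stayed past 2-fold the same way and 2 had the other sign. The 676 include values under another UMI minimum, which equal the main ratios by construction and could not change. Both values with the other sign were those of *Sp7* in *Gli1*+ *Pdgfra* cells at 21 dpi over uninjured, at 0.25 with cells thinned to 2000 UMIs and 0.52 without *Col2a1* and *Bglap*/*Ibsp* cells. The counts in *Col2a1* and *Bglap*/*Ibsp* cells over other *Pdgfra* cells at 21 dpi were 7 or 8 under each alternative run. In *Gli1*+ at 7 dpi over uninjured, the count of 5 became 3 with TMM scaling, with the mean of per-cell CPM, in male cells, without cells with *Ptprc*, *Cd3e*, *Cdh5* or *Krt5* UMIs, and without *Col2a1* and *Bglap*/*Ibsp* cells, and 2 when thinned. The counts take both directions. Without *Col2a1* and *Bglap*/*Ibsp* cells the 3 include *Runx2*, which was then past 2-fold higher and was not among the 5. At 21 dpi the count of 3 became 0 with TMM scaling and 1 with the mean of per-cell CPM, when thinned, and without *Col2a1* and *Bglap*/*Ibsp* cells. In *Gli1*- at 7 dpi the count of 2 became 5 with TMM scaling and 4 with the mean of per-cell CPM and without *Col2a1* and *Bglap*/*Ibsp* cells. Between the sorts at 7 dpi the count of 1 became 2 with no cell filters, no doublet removal, the mean of per-cell CPM and without *Col2a1* and *Bglap*/*Ibsp* cells, and 3 without cells with *Ptprc*, *Cd3e*, *Cdh5* or *Krt5* UMIs. In *Scx* cells at 21 dpi the count of 0 became 1 in each sort when thinned and with stricter gates. The cause was not tested. TMM scaling turned the sign of *Sox5*, *Runx2* and *Foxc1* in *Gli1*+ at 21 dpi over uninjured, to 0.28, 0.39 and 0.09.

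No analysis of the sorts paired by time was made. No replicate could be left out, because each condition has 1 library. The alternative with cells of female mice was not run for the comparisons with 7 dpi or with uninjured *Gli1*-, nor that with cells of male mice for those with 21 dpi, since a side had under 20 cells. The comparison between cells of 1 gate only and its alternatives were chosen after seeing the data. The intervals do not hold the spread between mice or libraries, so a difference between times or sorts cannot be told apart from one between libraries.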
